A study of Mus musculus with 2 samples.

Results

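The cytosolic ribosomal protein genes were taken by name from the deposited table of gene values: rows typed as mRNA whose symbol begins with Rpl or Rps and a digit, or with Rplp, or is Rpsa. Symbols of pseudogenes, the Rps6k kinases, Rpl3 and its muscle paralog Rpl3l were left out. The rule found 85 of 44787 genes, or 85 of 22669 rows typed as mRNA. Of these, 76 encode canonical proteins of the cytosolic ribosome, 31 of the 40S subunit and 45 of the 60S subunit, the latter with the 3 proteins of the stalk. The remaining members were paralogs and retrogenes of ribosomal proteins (Rpl7l1, Rpl10l, Rpl22l1, Rpl36al, Rpl39l, Rps27l, Rps27rt and Rps12l2) and Rps19bp1, whose product binds Rps19 and is not a subunit of the ribosome.

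RNA from mouse hindlimb muscle was sequenced in 1 library from an animal homozygous for a floxed Srsf2 allele without Cre (SRSF2 flox/flox, the control library) and in 1 library from an SRSF2 flox/flox MyoD-Cre animal (the knockout library). Both carried the floxed allele, and the knockout alone carried MyoD-Cre, which expresses the recombinase in the myogenic lineage, so the Cre allele and the loss of Srsf2 cannot be told apart. Srsf2 encodes a splicing factor of the serine- and arginine-rich class. Age, strain and pooling of animals were not stated in the sources used here, and with 1 library a genotype there was no replicate check, no test and no p-value.

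Ribosomal proteins assemble with ribosomal RNA in the nucleolus into a small subunit that reads the mRNA and a large subunit that joins amino acids. In mammals many of their mRNAs begin with a stretch of pyrimidines, the 5′ terminal oligopyrimidine (TOP) motif, through which mTOR signalling sets their translation and stability together. In muscle, the number of ribosomes limits the capacity for protein synthesis and rises with growth, and Rpl3l replaces Rpl3 in mature fibres.

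Pyrimidine runs were more frequent around the annotated starts of these genes than around those of other genes. RefSeq promoters (GRCm38.p6, 250 bases before to 50 bases after each annotated start) were matched by symbol for 65 members. Of these, 64 were searched, leaving out Rps19bp1. The annotated start lay within 50 bases of the deposited gene start in 54 of the 65. A run of at least 8 pyrimidines (C or T on the sense strand) lay within 50 bases of the start in 50 of the 64 (78.1%), against 35.6% of 27025 promoters of all genes and 31.2% of 8674 promoters of the other measured mRNA genes. That window includes bases before the start, which are not part of the mRNA. A run of that length covered the start itself in 16 of 64 (25%), against 3.80% of all promoters. The first base was C or T in 31 of 64 (48.4%), against 29.4% of all promoters and 23.8% of those of other measured mRNA genes. The start regions of 4 members with long runs over the start are printed below as examples. Each covers 50 bases before and 30 bases from the start on the sense strand, with the run in capitals. These 4 were not ranked against every other member, so their runs need not be the longest.
Rpl7a (chr2:26910757-26910836, plus strand): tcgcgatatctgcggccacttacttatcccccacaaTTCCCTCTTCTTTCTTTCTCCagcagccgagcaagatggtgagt
Rpl27a (chr7:109519145-109519224, plus strand): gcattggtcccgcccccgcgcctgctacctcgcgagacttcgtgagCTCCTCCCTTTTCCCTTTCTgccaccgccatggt
Rpl34 (chr3:130730308-130730387, minus strand): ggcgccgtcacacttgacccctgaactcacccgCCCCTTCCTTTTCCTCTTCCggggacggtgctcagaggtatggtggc
Rpl35 (chr2:39005102-39005181, minus strand): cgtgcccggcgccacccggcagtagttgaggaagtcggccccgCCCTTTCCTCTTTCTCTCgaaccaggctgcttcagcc

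All 4 runs were between 18 and 21 bases long. Rpl7a, Rpl27a, Rpl34 and Rpl35 are all proteins of the 60S subunit.

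Short motifs of promoter factors were searched on both strands of the same windows of 300 bases. CCGGAAG, a core that ETS factors such as GABP bind, was found in 26 of 64 member promoters (40.6%), against 9.15% of all promoters and 18.2% of those of other measured mRNA genes. TCGCGAG was found in 13 of 64 (20.3%), against 2.01% and 4.02%. AAGATGG, a YY1 core that also spells a start codon after AAG, was found in 9 of 64 (14.1%), against 6.47% and 7.40%. It can overlap CCGGAAG by its AAG, and 33 of 64 promoters (51.6%) held at least 1 of both, against 14.9% and 24.1%. CACGTG, the E-box of Myc and other factors, was found in 5 of 64 (7.81%), against 7.17% and 10.4%. TATAAA, a core promoter element, was found in 6 of 64 (9.38%), against 14.2% and 7.42%. These matches describe letters in a window and are not binding sites.

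**Figure D1:**
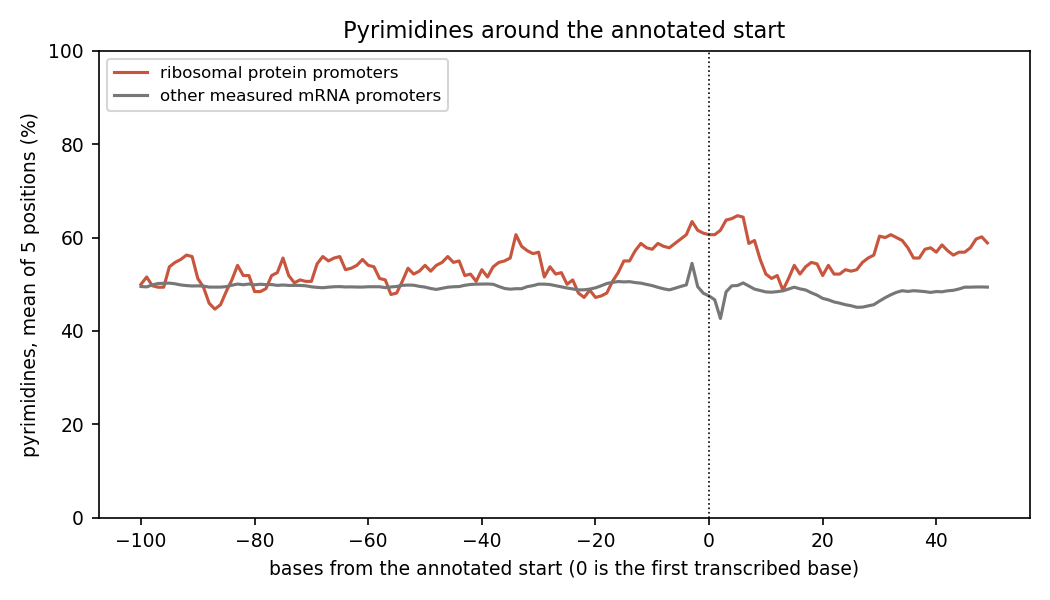
Share of pyrimidines (y axis, percent, mean of 5 neighbouring positions) by distance from the annotated start in bases (x axis) for the 64 ribosomal protein promoters and 8674 promoters of other measured mRNA genes. The ribosomal protein line reaches 64.7% at 5 bases after the start, where the other line is at 49.7%.

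Values were deposited as FPKM, a fragment count divided by gene length and by the reads of the library. Sequencing depth was 69422626 reads in the control and 76702198 in the knockout library, with 81.4% and 80.0% of them mapped, and FPKM values were relative to 26659452 and 28060573 reads. Srsf2 was at 31.1 FPKM in the control and 19.4 FPKM in the knockout library, a ratio of 0.624 (95% counting interval 0.544 to 0.713). Counting intervals here and below are exact Clopper-Pearson intervals from the reads that would fall on the coding part alone, the fewest that the FPKM allows, and they cover counting error only. A gene counted as measured where either library had at least 1 FPKM, and its difference was log2((knockout FPKM + 1)/(control FPKM + 1)), which understates the change of low genes.

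Cell type markers also differed between the libraries. All 18 myofibre markers were measured, 17 of them lower in the knockout library and 3 at least 2-fold lower, and their summed level was 54752 FPKM in the control and 31145 FPKM in the knockout library. Of 17 keratinocyte markers, 16 were at least 2-fold higher, with a summed level of 17.1 and 2196 FPKM. Of 16 adipocyte markers, 14 were measured and 9 were at least 2-fold higher, with a summed level of 649.8 and 1139.6 FPKM and Ucp1 at 0 in the control library. Fibroblast markers (10 of 10 measured, none past the 2-fold rule) summed to 2968 and 4827 FPKM, and erythroid markers (8 of 8 measured, 4 at least 2-fold higher) to 1272 and 2770.3 FPKM. The 12 proliferation markers were all higher, 11 by at least 25% and none 2-fold, summing to 159 and 232 FPKM. The median log2 difference was 0.45 for the fibroblast and 0.50 for the proliferation markers. Of 10 lymphocyte markers 2 were measured, at a sum of 3.73 and 6.09 FPKM, with Cd3d at 0 in the control and Cd3e at 0 in the knockout library. Of all measured genes, 30.2% were at least 25% higher, 2.68% at least 2-fold higher and 0.744% at least 2-fold lower. The part of these cell types in the values of the ribosomal protein genes was not tested.

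The ribosomal protein genes were higher in the knockout library as a group. Of the 85 members, 81 were measured, each at 12.7 FPKM or more in both libraries, and the value of all 81 was higher in the knockout library, against 73% of 13175 measured genes. Their median difference was 0.48 on the log2 scale, beside 0.18 for the median of all measured genes. At least 25% higher were 73 of the 81 members, against 30.2% of measured genes, and 0 were at least 20% lower, the same step downwards on the log2 scale, against 7.84%. None reached the 2-fold rule, past which lay 2.68% of measured genes on the higher and 0.744% on the lower side. In bulk RNA, fewer cells of a type and less RNA per cell cannot be told apart.

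How far the members stood from 0 depended on the scaling of the libraries. Each scaling multiplies all knockout values by the same factor, so it could hardly change their distance from the median gene. After median-of-ratios scaling, TMM scaling and scaling without the 50 most abundant genes, the knockout values were multiplied by 0.866, 0.868 and 0.859, and the median gene moved from 0.18 to 0.01, 0.01 and -0.002. The median member was then at 0.28, 0.28 and 0.27, or 0.27 above the median gene in each case, against 0.30 with the values as deposited. At least 25% higher were then 30, 30 and 27 of the 81 members, against 13.3%, 13.4% and 12.7% of measured genes. Under all 3 scalings 79 of 81 members stayed above 0, and Rpl7l1 and Rps19bp1 lay below it.

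Together the 85 members summed to 29213 FPKM in the control and 41873 FPKM in the knockout library, a ratio of 1.43. Their share of all FPKM was 6.20% in the control and 8.88% in the knockout library. The spread among the members was narrower than over all measured genes, but not particular to them. The SD of their differences was 0.14, against 0.46 over all measured genes, which include the keratinocyte markers. It was 0.15 among the 12 proliferation markers, 0.14 among 12 factors of ribosome rescue and 0.26 among the 10 fibroblast markers. The middle 50% of members lay between 0.42 and 0.57.

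**Figure D2:**
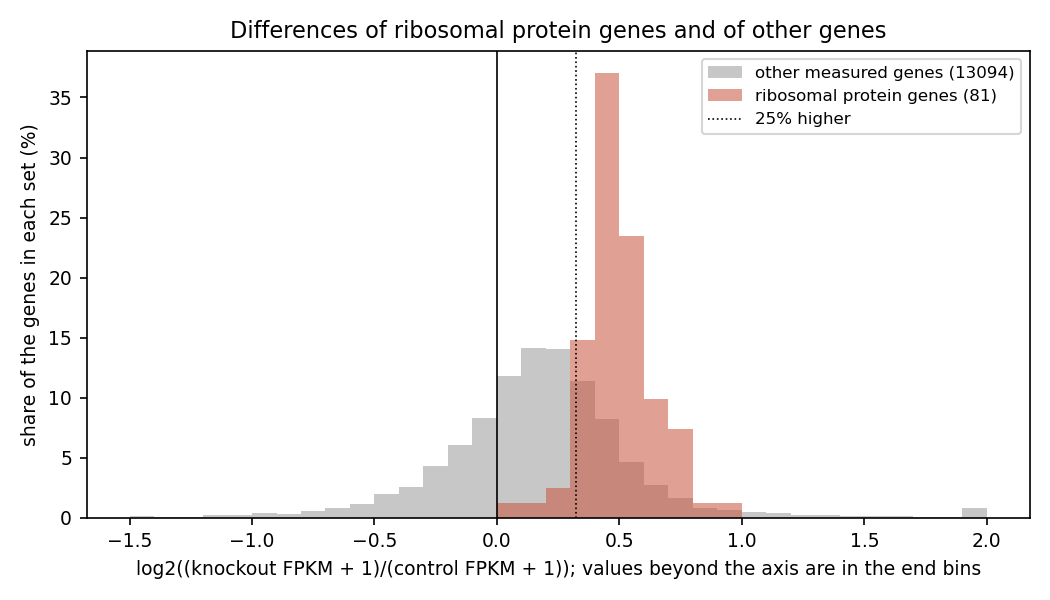
Share of genes in percent (y axis) by log2 difference, knockout minus control (x axis, bins of 0.1, with values beyond the axis in the end bins), for 81 measured ribosomal protein genes and 13094 other measured genes. The members form 1 narrow peak around 0.48, to the right of the other genes and short of a difference of 1.

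The 40S and 60S subunits had nearly the same median difference. All 31 genes of 40S proteins were higher in the knockout library, with a median difference of 0.48, and their summed level was 10575 FPKM in the control and 15348 FPKM in the knockout library (ratio 1.45). The 42 genes of 60S proteins outside the stalk were also all higher, with a median difference of 0.49 and a summed level of 17170.2 and 24336 FPKM (ratio 1.42). With the values as deposited, the counting interval of the ratio lay above 1 for all 76 canonical genes. The share of other genes with such an interval was not computed, and 73% of all measured genes were higher in the knockout library.

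The stalk, the flexible arm of the 60S subunit that recruits the elongation factors, showed unequal values within 1 complex. Its base Rplp0 (chromosome 5, 115559467 to 115563729, plus strand) was at 342 FPKM in the control and 447 FPKM in the knockout library, a ratio of 1.31 (1.27 to 1.34). Rplp1 (chromosome 9, 61913283 to 61914510, minus strand), 1 of the 2 small acidic proteins bound to that base, was at 659 and 1051 FPKM, a ratio of 1.59 (1.54 to 1.65). Its partner Rplp2 (chromosome 7, 141447464 to 141451350, plus strand) was at 306 and 473 FPKM, a ratio of 1.55 (1.48 to 1.62). The intervals of the small partners overlapped each other and lay above that of Rplp0. The coding part has 951 bases in Rplp0, 342 in Rplp1 and 345 in Rplp2. The part of coding length in this gap was not tested.

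Levels differed far more between members than between libraries. FPKM is a level per length, and on this scale the canonical genes spanned 41.9-fold in the control and 47.0-fold in the knockout library, although most of their proteins occur once in each ribosome. Across the 76 genes, which are not independent replicates, the log2 levels in both libraries were correlated at 0.995 (Pearson) and 0.994 (Spearman). The most abundant by mean level was Rps23, a protein of the decoding centre, at 1957 FPKM in the control and 2913 FPKM in the knockout library. It was followed by Rpl26, at 1902 and 2593 FPKM, and by Rpl4, a protein that lines the exit tunnel, at 1169 and 1613 FPKM.

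Rpl41, at 968 and 1811 FPKM, and Rpl34, at 1017 and 1556 FPKM, completed the 5 most abundant. The least abundant canonical genes were Rps15a, at 46.7 and 61.9 FPKM, Rpl18, at 49.1 and 73.4 FPKM, and Rpl37a, at 59.1 and 90.7 FPKM. The order of the levels was thus nearly the same in both libraries, and the difference was not tied to level (Pearson 0.04, Spearman -0.002 against log2 mean FPKM).

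**Figure D3:**
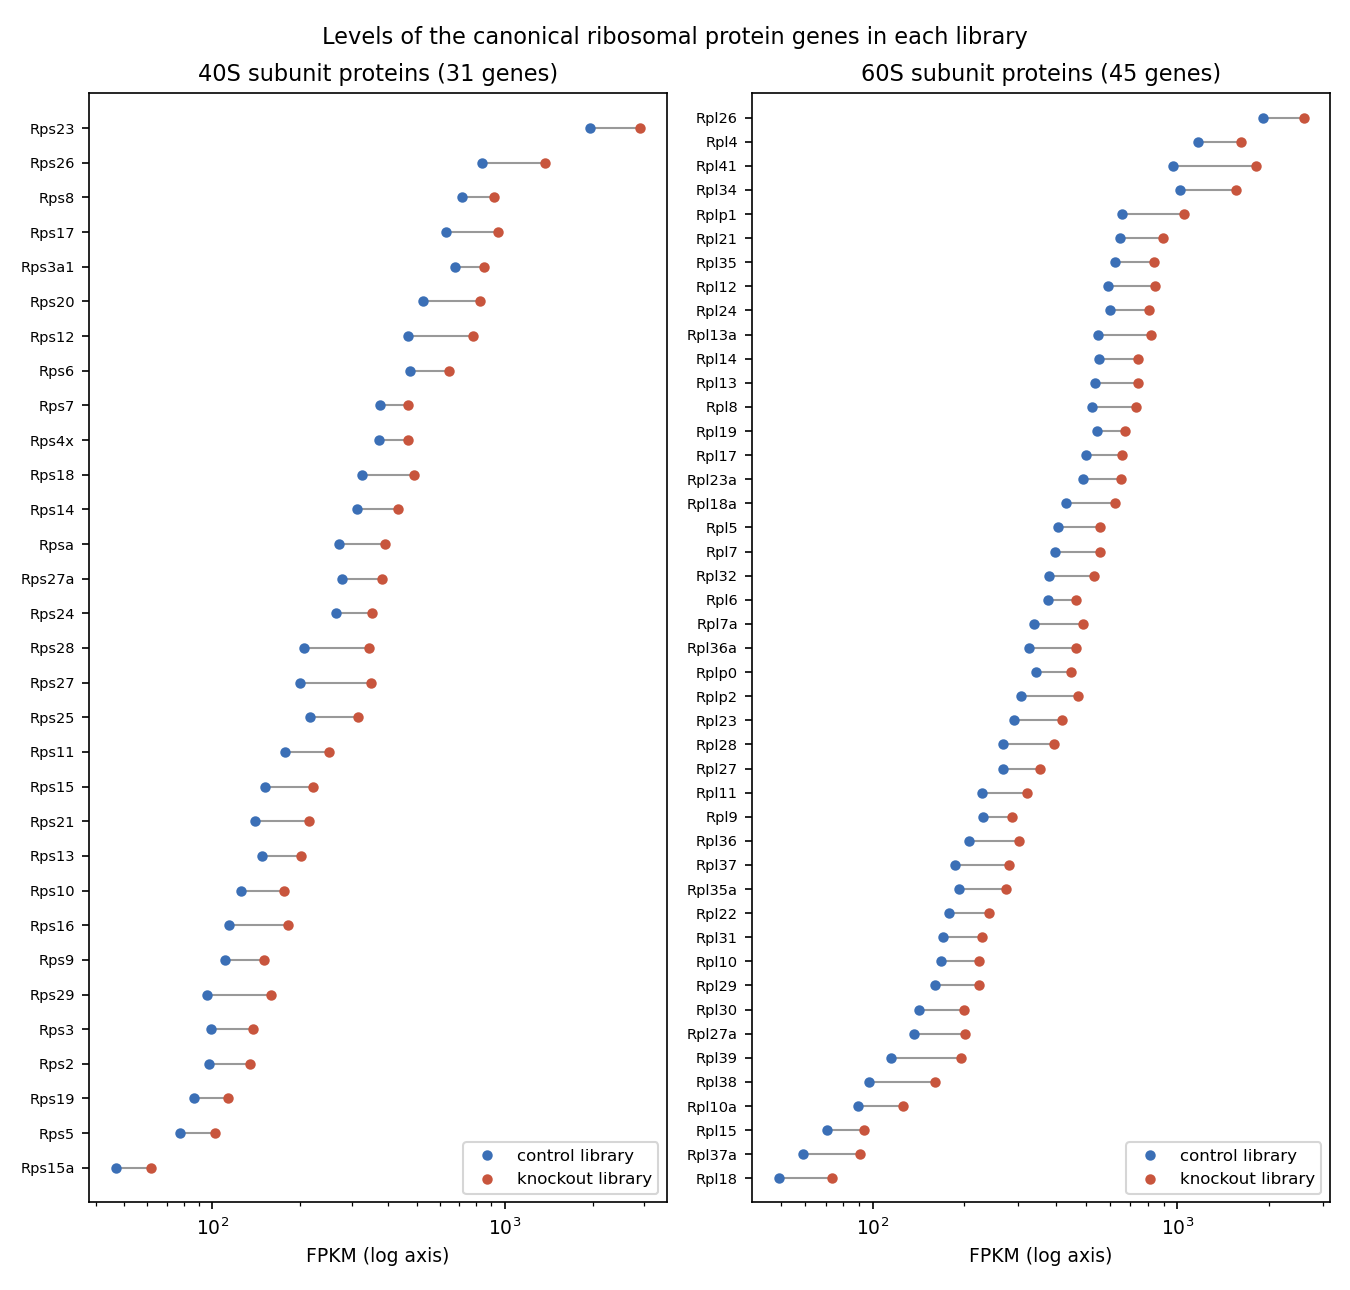
Level of each canonical gene in FPKM (x axis, log scale) in the control and the knockout library, joined by a line, for 31 genes of 40S and 45 genes of 60S proteins ordered by mean level. In all 76 genes the knockout point lies to the right of the control point, and the step is small beside the 41.9-fold and 47.0-fold range of levels.

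The genes with the highest differences encode some of the smallest ribosomal proteins. Rpl41 (chromosome 10, 128548110 to 128549168, minus strand), which encodes the shortest protein of the ribosome and sits at the bridge between the subunits, had the highest difference, 0.90, with 968 FPKM in the control and 1811 FPKM in the knockout library (ratio 1.87, 1.77 to 1.98). Rps27 (chromosome 3, 90212667 to 90213648, minus strand), a zinc finger protein of the 40S subunit, was at 200.1 and 349 FPKM, a ratio of 1.75 (1.63 to 1.87). Rpl39 (chromosome X, 37082520 to 37085184, minus strand), a small protein of the exit tunnel, was at 115 and 195 FPKM, a ratio of 1.70 (1.52 to 1.91). The intervals of these 3 genes overlapped, so their order is one of values only.

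Rps12 (chromosome 10, 23785183 to 23787209, minus strand), a protein of the 40S beak, followed at 467 and 779 FPKM, a ratio of 1.67 (1.61 to 1.73). Rps28, which lies at the mRNA exit of the 40S subunit, was at 206 and 344 FPKM, a ratio of 1.67 (1.55 to 1.80). The next were Rps29, a zinc-binding protein of the 40S head, at 96.3 and 159 FPKM, Rpl38, known in mouse for its role in the translation of Hox mRNAs, at 97.2 and 160.5 FPKM, and Rps26, a protein of the mRNA exit channel, at 838 and 1378 FPKM. Their ratios were 1.65 (1.46 to 1.86), 1.65 (1.48 to 1.84) and 1.64 (1.60 to 1.69). All 8 lay above a 1.5-fold difference, as did 18 of the 81 measured members, against 9.15% of measured genes.

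The start regions of the 4 members with the highest differences are printed in the same format, to set them beside those with the lowest. In these and in the next set the capitals mark the longest pyrimidine run of the printed window.
Rpl41 (chr10:128549139-128549218, minus strand): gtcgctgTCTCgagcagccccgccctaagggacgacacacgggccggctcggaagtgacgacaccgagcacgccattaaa
Rps27 (chr3:90213619-90213698, minus strand): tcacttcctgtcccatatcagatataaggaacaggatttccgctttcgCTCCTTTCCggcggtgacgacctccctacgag
Rpl39 (chrX:37085193-37085272, minus strand): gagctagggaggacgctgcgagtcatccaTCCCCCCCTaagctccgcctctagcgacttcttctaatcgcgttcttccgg
Rps12 (chr10:23787180-23787259, minus strand): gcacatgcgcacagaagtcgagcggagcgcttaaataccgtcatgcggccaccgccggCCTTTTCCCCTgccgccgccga

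Their longest runs were 4, 9, 9 and 11 bases. Of these 4 runs, that of Rps27 covered the start. The annotated start of Rpl39 lay 38 bases from its deposited gene start, which is outside the printed window.

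At the low end, 5 canonical genes lay below the 25% rule. Rpl6, a protein of the 60S surface, had the lowest difference among canonical genes, with 377 FPKM in the control and 464 FPKM in the knockout library, a ratio of 1.23 (1.20 to 1.27). Rpl19, whose helix reaches into the 40S subunit as a bridge, was at 546 and 673 FPKM, a ratio of 1.23 (1.20 to 1.27). Rps4x, the X-linked form of Rps4, was at 373 and 466 FPKM, a ratio of 1.248 (1.21 to 1.28). Rpl9, at 229 and 286 FPKM, and Rps7, at 375 and 468 FPKM, both had a ratio of 1.248. None of these 5 genes had an interval that reached the intervals of Rpl41 or Rps27. The start regions of the 4 lowest canonical members follow.
Rpl9 (chr5:65391402-65391481, minus strand): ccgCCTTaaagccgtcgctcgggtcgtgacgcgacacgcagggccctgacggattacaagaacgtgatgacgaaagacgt
Rps4x (chrX:102189362-102189441, minus strand): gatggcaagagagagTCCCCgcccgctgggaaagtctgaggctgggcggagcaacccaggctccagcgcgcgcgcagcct
Rpl19 (chr11:98026660-98026739, plus strand): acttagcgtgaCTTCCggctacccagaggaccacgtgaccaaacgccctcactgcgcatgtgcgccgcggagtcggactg
Rpl6 (chr5:121204451-121204530, plus strand): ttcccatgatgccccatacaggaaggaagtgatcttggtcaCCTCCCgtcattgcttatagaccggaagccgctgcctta

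Their longest runs were 4, 5, 5 and 6 bases. The annotated start of Rps4x lay 85 bases from its deposited gene start, which is outside the printed window. The median difference was 0.50 for the 49 measured members with a promoter and a run of 8 or more. It was 0.43 for the 12 with shorter runs. Rpl41, the highest, had a run of 4 in its printed window. Whether these annotated starts are the ones used in muscle was not tested.

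Within the canonical genes, the difference was smaller in genes with a longer coding part. The 9 genes with at most 300 coding bases (Rpl41, Rps28, Rps27, Rpl37, Rps21, Rpl39, Rpl38, Rps29 and Rpl37a) had a median difference of 0.72, and all 9 were at least 1.5-fold higher. The 46 genes with over 300 and up to 600 coding bases had a median of 0.49, with 8 at least 1.5-fold higher. The 21 genes with over 600 coding bases had a median of 0.46, with 0 of 21 at that fold. Of all measured genes, 9.15% were at least 1.5-fold higher.

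Against log2 coding length, the difference was correlated at -0.71 (Pearson) and -0.60 (Spearman) over the 76 genes, which share both libraries and are not independent replicates. The values were -0.71 and -0.67 for the 31 genes of 40S proteins and -0.72 and -0.49 for the 42 genes of 60S proteins outside the stalk. They were -0.59 and -0.55 for the 73 genes with over 200 coding bases, which leaves out Rpl41, Rpl39 and Rps29. Over 10930 other measured mRNA genes, the difference and log2 transcript length had correlations of -0.07 and -0.03. Transcript length is a different measure, so these values cannot be set directly beside those on coding length. On coding length, the correlations were 0.19 and 0.14 over 25 other mRNA genes with a transcript of at most 700 bases and a mean of at least 100 FPKM. The 71 other mRNA genes with at most 300 coding bases and a mean of at least 20 FPKM had a median difference of 0.20, and 32.4% were at least 25% higher. The sources used here do not state RNA quality or fragment length, and their part in the relation with length was not tested.

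**Figure D4:**
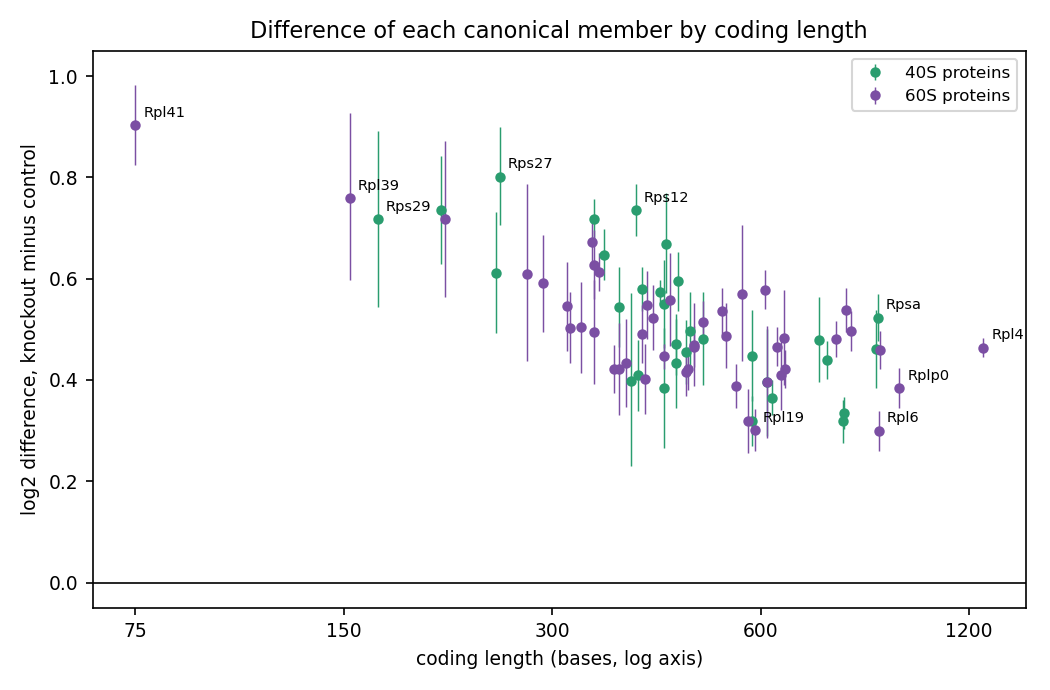
log2 difference, knockout minus control (y axis), against coding length in bases (x axis, log scale) for the 76 canonical genes, with 95% counting intervals as bars. Points fall from 0.90 for Rpl41 to values between 0.30 and 0.58 for the genes with over 600 coding bases.

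The paralogs did not move as 1 group. Rpl22l1 (chromosome 3, 28805511 to 28807415, plus strand), the paralog of Rpl22, was at 27.7 FPKM in the control and 42.7 FPKM in the knockout library, a ratio of 1.54 (1.32 to 1.80), while Rpl22 was at 178 and 241 FPKM, a ratio of 1.35 (1.27 to 1.44). Rpl36al was at 83.2 and 121 FPKM, a ratio of 1.45 (1.32 to 1.60), and Rpl36a at 327 and 464 FPKM, a ratio of 1.42 (1.35 to 1.49). In both pairs the intervals of paralog and parent overlapped, so no difference within the pair was detectable at this depth.

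Rps27l (chromosome 9, 66946071 to 66949520, plus strand), the paralog of Rps27 and a known p53 target, was at 12.7 and 14.9 FPKM, a ratio of 1.17 (0.873 to 1.58), and its interval lay below that of Rps27. Rpl7l1 (chromosome 17, 46773907 to 46782656, minus strand), a paralog of Rpl7, was at 20.9 and 21.3 FPKM, a ratio of 1.02 (0.889 to 1.17), against 395 and 558 FPKM and a ratio of 1.41 (1.37 to 1.45) for Rpl7. Rps19bp1 (chromosome 15, 80260614 to 80264306, minus strand), which the files describe as a regulator of the deacetylase Sirt1, was at 15.0 and 16.4 FPKM, a ratio of 1.09 (0.882 to 1.34). With the values as deposited, these 3 were the only measured members whose interval included 1, and none of them encodes a canonical subunit. The share of other genes with such an interval was not computed.

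The other 4 members were under 1 FPKM in both libraries. Rpl39l, the paralog of Rpl39 that is mostly found in testis, was at 0.419 and 0.974 FPKM. Rps12l2 was at 0.377 and 0.685 FPKM and Rps27rt, a retrogene of Rps27, at 0.201 and 0.0953 FPKM. Rpl10l, a retrogene of Rpl10 active in male germ cells, was listed at 0 in both. No direction can be read at these levels.

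Ribosomal protein genes have many pseudogenes in the mouse genome, and reads can be shared with them. The files list 284 pseudogene rows named after ribosomal proteins, and 57 of the 85 members have at least 1. Of these rows 90 were measured, with a median difference of 0.28. In the knockout library 83 of the 90 were higher, against 73% of measured genes, and 37 at least 25% higher, against 30.2%. All 284 rows summed to 653 FPKM in the control and 828 FPKM in the knockout library, a small amount beside the members. Of the 81 measured members, 21 had values that correspond to whole reads, and all 21 were higher, with a median difference of 0.50, against 0.48 for the 60 others.

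The retrocopy Rps3a2, typed as ncRNA and outside the rule, was at 144 and 151 FPKM, against 676 and 852 FPKM for its parent Rps3a1. The sources used here do not state how reads were split between such copies, so single values of members with close copies are uncertain. On GRCm38, 80 of the 85 members overlapped the gene of the same name in GENCODE M21 at the deposited position. Rps28, Rps18, Rps10 and Rpl10a were placed on alternate sequences of chromosome 17, and their median difference was 0.54.

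Other ribosome genes outside the naming rule went the same way. Rpl3, whose extension reaches towards the catalytic centre, was at 269.7 FPKM in the control and 382 FPKM in the knockout library, a ratio of 1.42 (1.38 to 1.46). Fau, which encodes a 40S protein fused to a ubiquitin-like protein, was at 174 and 233 FPKM, a ratio of 1.34 (1.26 to 1.42). Gnb2l1, the gene of the 40S scaffold Rack1, was at 109 and 136 FPKM. Rpl3l, the muscle paralog of Rpl3, was the exception at 18.9 and 6.07 FPKM, a ratio of 0.320 (0.271 to 0.374).

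The machinery that builds ribosomes lay near or below the median gene. Of 43 biogenesis factors, 4 were at least 25% higher, against 30.2% of measured genes, and 1 at least 20% lower, against 7.84%, and their median difference of 0.13 was below the 0.18 of the median gene, so that under the 3 scalings it was -0.07, -0.07 and -0.08. Nop58, a core protein of box C/D snoRNPs, was at 62.7 and 86.6 FPKM, the highest difference of this list, and Bysl, a factor of 40S maturation, at 6.60 and 4.93 FPKM, the lowest. Of 13 measured subunits and factors of RNA polymerase I, which transcribes ribosomal RNA, 4 were at least 25% higher, a share close to the 30.2% of all measured genes, and 0 at least 20% lower, with a median of 0.10 as deposited and -0.08, -0.08 and -0.09 under the scalings. Polr1c was at 5.46 and 8.22 FPKM, and Ubtf, the factor that opens the ribosomal RNA genes, at 40.9 and 34.6 FPKM.

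Chaperones and importers of ribosomal proteins had a median of 0.12. Of 14, 3 were at least 25% higher (Pdcd2l, Tnpo1 and Ipo4), against 30.2% of measured genes. At least 20% lower was 1 (Heatr3), against 7.84%. Factors of ribosome rescue had a median of 0.15. Of 12, 3 were at least 25% higher, against 30.2% of measured genes, among them Nemf at 22.6 and 29.4 FPKM. At least 20% lower were 0, against 7.84%. The medians of both lists were also below 0 under the 3 scalings. The 76 mitochondrial ribosomal protein genes, a comparison chosen after the values were seen, had a median of 0.06, and -0.12, -0.12 and -0.13 under the scalings. As deposited, 9 were at least 25% higher, against 30.2% of measured genes, and 3 at least 20% lower, against 7.84%.

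Elongation factors and other TOP genes lay nearer to the median gene than to the ribosomal proteins. Of 20 such genes, 18 were higher in the knockout library, against 73% of measured genes. Their median was 0.27 as deposited and 0.07, 0.07 and 0.06 under the scalings. At least 25% higher were 5 of 20, a share below the 30.2% of all measured genes, and 0 of 20 under each scaling, against 13.3%, 13.4% and 12.7%. Eef1a1, which brings aminoacyl-tRNA to the ribosome, was at 2047 and 2534 FPKM, a ratio of 1.24. Nap1l1, Btf3 and Npm1 led the list with ratios of 1.426, 1.407 and 1.397. Eef1a2, the form of Eef1a1 in mature muscle, was at 58.9 and 24.8 FPKM, a ratio of 0.422 (0.390 to 0.455), and Ccng1 at 60.1 and 43.7 FPKM. These 2 of the 20 were at least 20% lower, against 7.84% of measured genes.

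The 9 host genes of snoRNAs, many of which also begin with a TOP motif, had a median of 0.31 as deposited and 0.12, 0.12 and 0.11 under the scalings. At least 25% higher were 4 of 9, against 30.2% of measured genes. Under each scaling it was 1 of 9, against 13.3%, 13.4% and 12.7%. Snhg5 led them at 33.5 and 52.8 FPKM. Among 20 regulators of growth and of ribosomal protein genes, 9 were at least 25% higher, against 30.2% of measured genes, and 1 at least 20% lower, against 7.84%. Their median was 0.25 as deposited and 0.05, 0.05 and 0.03 under the scalings. Gabpb1, a subunit of the ETS factor GABP, was at 5.18 and 7.69 FPKM, and Sp1 at 5.21 and 7.73 FPKM. Myc was at 4.17 and 6.19 FPKM, a ratio of 1.48 (1.21 to 1.83), and Mtor, the kinase that drives the translation of TOP mRNAs, at 5.77 and 4.07 FPKM, a ratio of 0.704 (0.644 to 0.769). Under the 3 scalings 0 of these 20 regulators were at least 25% higher, against 13.3%, 13.4% and 12.7% of measured genes.

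**Figure D5:**
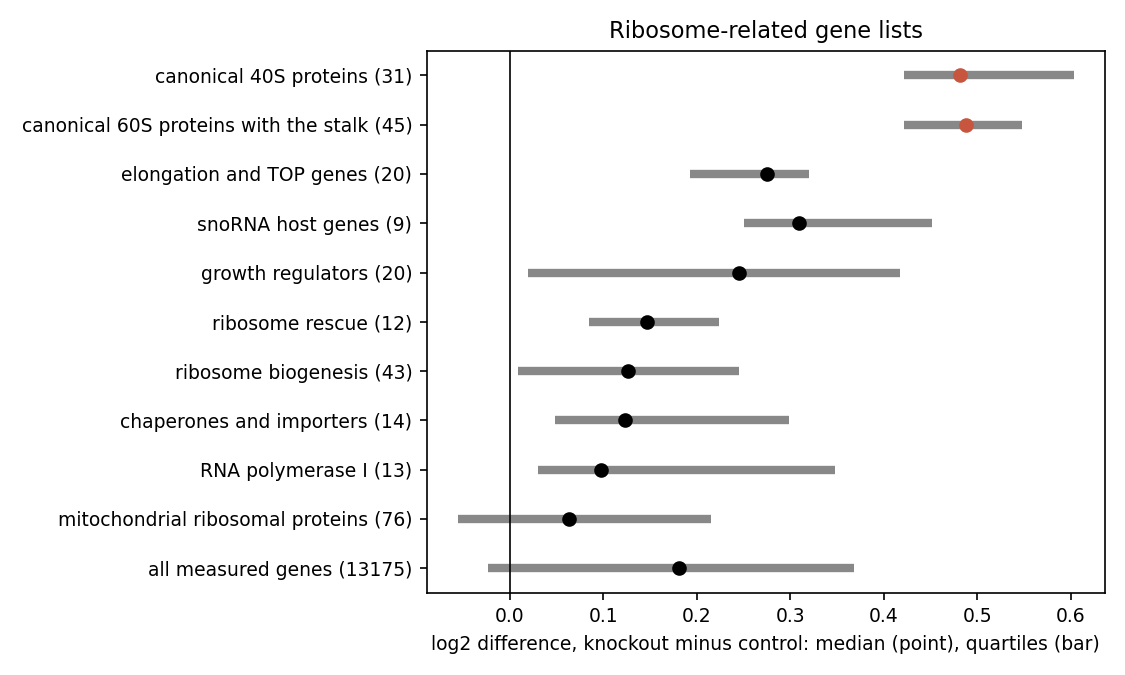
Median (point) and quartiles (bar) of the log2 difference, knockout minus control (x axis), for the canonical ribosomal proteins, 8 lists of translation and ribosome assembly genes and all measured genes, with the number of genes in brackets. The 40S and 60S proteins lie at 0.48 and 0.49, and the 8 lists between 0.06 and 0.31, with all measured genes at 0.18.

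Other mRNAs that were abundant, short or both had smaller median differences than the members, and those that were both came nearest. The 330 other mRNA genes with a mean of at least 100 FPKM had a median difference of 0.22, and 33.9% were at least 25% higher, against 73 of the 81 measured members. The 234 other measured mRNA genes with a transcript of at most 700 bases had a median of 0.26, with 44% at least 25% higher. The 25 that were both, with a transcript of at most 700 bases and a mean of at least 100 FPKM, had a median of 0.39, with 56% (14 of 25) at least 25% higher.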

How the data were processed

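Hindlimb RNA of 1 control and 1 knockout sample was sequenced, and samples were grouped by their genotype labels. Bowtie 0.12.2 and mm9 appear in the submitters' processing notes, with no role given. The deposited positions are those of GRCm38. The counter, its annotation, its strand setting and its handling of reads that match several copies are not stated in the sources used here. Per gene, the authors deposited FPKM, and they also deposited read counts of mapping classes with each chromosome's fraction of mapped reads, of which the counts were used.

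FPKM were used as deposited, with a pseudocount of 1 FPKM and a minimum of 1 FPKM in at least 1 library for a measured gene. With 1 library a group no test was made, and rules of size (25% higher, 20% lower, 1.5-fold and 2-fold) describe these libraries. The reads to which FPKM are relative were read from low noncoding genes, whose values step by single reads (369 genes in the control and 423 in the knockout library). Coding lengths came from GENCODE M21. Counting intervals (exact Clopper-Pearson, 95%) use the reads on the coding length, a lower limit of the reads, and were tested on simulated data. The intervals treat reads as independent, which PCR copies of a molecule are not.

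Named members are the 8 highest and 8 lowest differences at 5 FPKM or more, the 5 most abundant, the stalk, the paralogs and those under 1 FPKM, and up to 3 at either end of each other list. The members, lists and rules were chosen with earlier results of these data known, and the grouping by coding length, the length-matched genes, the least abundant genes and Rps3a2 after their values were seen. The software was matplotlib 3.10.9, pandas 2.3.3, scipy 1.17.1, numpy 2.4.6 and Python 3.11.15.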

Additional observations from a re-analysis of the deposited data

How the results depend on the processing

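The scaling of the libraries was the choice that moved values. Against 0.48 as deposited, the median difference of the members was 0.28 after median-of-ratios, 0.28 after TMM scaling and 0.27 without the 50 most abundant genes. The members at least 25% higher were then 30, 30 and 27, against 73, and the ratio of summed FPKM 1.24, 1.24 and 1.23, against 1.43. As a share of mRNA FPKM without the mitochondrial genome, that ratio was 1.36. These shifts follow from the factors that multiply the knockout values. With whole-read members only, 21 genes remained by construction, 21 of them higher and 19 by at least 25%. A pseudocount of 0.1 FPKM, a minimum of 5 FPKM, all members above 0 and canonical proteins only left the median between 0.48 and 0.49. On the scale with the pseudocount, no member reached the 2-fold rule in any setting, and no direction of a member past the 25% rule reversed. Without a pseudocount Rpl39l, at 0.419 and 0.974 FPKM, had a ratio of 2.32, from few reads. No paired analysis was possible because there was 1 library in each genotype, so no library could be left out either. Depth limits the members under 1 FPKM, which have few reads.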
